A study of Mus musculus with 5 samples.

Results

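A set of 10 genes of the machinery that docks, primes and fuses secretory vesicles was followed on the 5 arrays of a mouse islet study. They are the GTPases Rab3a and Rab27a, their effectors Rph3al and Sytl4, the SNARE genes Snap25 and Stx1a, the synaptotagmins Syt7 and Syt13, and the priming factors Unc13a and Rims2. They were listed by name, and each was read from the probe set that carried its symbol alone, with the highest mean signal taken where there were several. All 10 were found, among 19938 genes measured in this way.

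Each array was hybridised with total RNA from 1 pool of pancreatic islet cells, sorted by flow cytometry into a Flattop-positive fraction (3 arrays) and a Flattop-negative fraction (2 arrays). Flattop is the product of Cfap126, and the series is titled for proliferative and mature β-cells. The donors of every pool were untreated C57BL/6 mice of 8 to 12 weeks, heterozygous for Flattop (FVR/+), so both fractions carry the same modified allele; a pool held cells of 4 to 6 mice of undetermined sex. The values are log2 signals, and all differences are Flattop-positive minus Flattop-negative. The labels do not say whether pools shared mice, and p-values measure the spread between these pools.

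In an endocrine cell, hormone granules are brought to the plasma membrane by Rab GTPases and the effector proteins they bind. Munc13 and RIM proteins then prime the granule, and SNARE proteins on the granule and on the membrane zip together and fuse it. Synaptotagmins couple that fusion to the calcium that enters when glucose depolarises a β-cell. In bulk RNA, fewer cells of a type and less RNA per cell cannot be told apart.

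Cfap126 itself stood at 6.07, 6.07 and 6.24 in the Flattop-positive pools, against 5.52 and 5.44 in the Flattop-negative pools. The fractions did not overlap, in the direction of the labels, and the difference of 0.64 ± 0.18 (SE) did not pass over all genes (limma adjusted p = 0.274). Across genes the Flattop-negative arrays correlated at r = 0.846, the lowest of any 2 arrays, and the Flattop-positive arrays at 0.953 to 0.984. The 95th percentile of 1027 olfactory receptor genes, taken as the floor of each array, lay at 4.29 to 4.45 in the positive pools, against 4.75 and 4.86 in the negative pools.

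Of the 10 genes, 9 had a higher mean signal in the Flattop-positive pools, as did 40.8% of all genes, and Unc13a alone was lower on its chosen probe set. At an unadjusted limma p under 0.05 there were 3, Rab3a, Sytl4 and Syt13, all higher, against 8.48% of all genes that were higher at that threshold and 5.37% that were lower. None of the 10 passed an adjusted p of 0.05, as for every gene on the arrays (0 of 19938). The fractions did not overlap for 6 of the 10, all higher in the positive arrays, where 13.7% of all genes behaved so. The share depended on signal. Among the 8087 genes with a mean signal between those of Stx1a (5.57) and Snap25 (9.45), 71.1% had a higher mean, 18.5% were higher at the unadjusted threshold and 28.2% were higher without overlap. The median difference over the 10 genes was 0.49, over all genes -0.10 and over the genes in that signal range 0.30. The 95% intervals of Rab3a, Sytl4 and Syt13 lay above 0, and those of the other 7 included it.

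**Figure D1:**
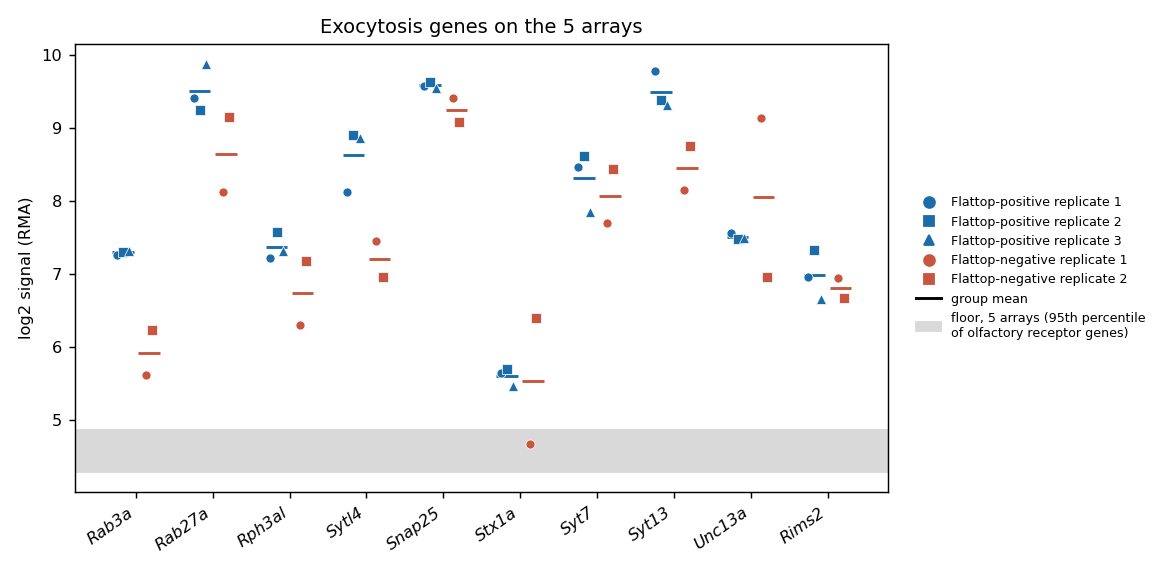
Log2 signal of the 10 exocytosis genes on each array, with a point for each array (symbols give the replicate number), a bar for the group mean and a grey band for the floor, which spans 4.29 to 4.86 over the arrays. Rab3a, Sytl4 and Syt13 separate the fractions by the widest gaps, while Stx1a and Unc13a differ most between the 2 Flattop-negative arrays.

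Rab3a encodes a GTPase of secretory vesicles that recruits RIM and other effectors at the membrane. Its log2 signal was 7.27, 7.31 and 7.32 in the Flattop-positive pools, against 5.61 and 6.23 in the Flattop-negative pools. The positive arrays were almost level and both negative arrays lay below them. The means were 7.30 ± 0.03 (SD, n = 3) and 5.92 ± 0.43 (SD, n = 2). The difference was 1.37 ± 0.24 (SE), a 2.59-fold higher signal, with an adjusted p of 0.199 in limma over all genes. It was 1.07 when Flattop-negative replicate 1 was left out and 1.68 when replicate 2 was, where it passed the adjusted threshold (limma adjusted p = 0.0412). In that fit 434 of the 19938 genes passed, and the spread between arrays came from the 3 positive ones, because a single negative array was left.

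Rab27a encodes the GTPase that tethers granules through Sytl and Rph3al proteins. It stood at 9.41, 9.25 and 9.87 in the positive pools, against 8.12 and 9.15 in the negative pools. The groups did not overlap, but Flattop-negative replicate 2 came within 0.10 of the lowest positive array. The difference was 0.87 ± 0.38 (SE; limma adjusted p = 0.384). It was 0.36 when Flattop-negative replicate 1 was left out and 1.39 when replicate 2 was, and 0.54 under renewed quantile normalisation and 0.38 after cyclic loess.

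Sytl4 encodes granuphilin, a granule protein that binds Rab27a and Rab3a and docks insulin granules at the membrane through syntaxin. Its signal was 8.12, 8.90 and 8.87 in the positive pools, against 7.45 and 6.96 in the negative pools. Every positive array lay above both negative arrays, with 0.67 between the nearest values. The difference of 1.42 ± 0.33 (SE) was the largest of the 10, a 2.68-fold higher signal (limma adjusted p = 0.232). Here Flattop-negative replicate 2 was the lower of the negative arrays, opposite to Rab3a, and the difference was 1.67 without replicate 1 and 1.18 without replicate 2.

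Rph3al encodes Noc2, an effector of Rab3 and Rab27 on granules. It was at 7.22, 7.58 and 7.32 in the positive pools, against 6.30 and 7.18 in the negative pools. The groups did not overlap, yet only 0.035 separated the lowest positive from the higher negative array. The difference of 0.63 ± 0.32 (SE) had a limma adjusted p of 0.427, and without Flattop-negative replicate 1 it was 0.19, against 1.08 without replicate 2. It was 0.27 under renewed quantile normalisation and 0.24 after cyclic loess.

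The upstream sequences of Rab3a and Sytl4, which had the 2 largest differences, are shown beside that of Stx1a, which had almost none. They are the 250 bases before a transcript start annotated in RefSeq (build GRCm38.p6), with GC boxes (GGGCGG on either strand) in capitals. Rab3a lies at chr8:70754453-70754702 on the plus strand, Sytl4 at chrX:133981813-133982062 on the minus strand and Stx1a at chr5:135023232-135023481 on the plus strand. The Rab3a and Stx1a windows end at the outermost annotated start of the gene, and the Sytl4 window does not.
Rab3a: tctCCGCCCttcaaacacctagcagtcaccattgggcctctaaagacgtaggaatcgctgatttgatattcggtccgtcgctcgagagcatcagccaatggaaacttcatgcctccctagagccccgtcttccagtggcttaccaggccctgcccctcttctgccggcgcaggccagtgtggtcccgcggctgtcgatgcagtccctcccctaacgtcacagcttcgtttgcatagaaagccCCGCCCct
Sytl4: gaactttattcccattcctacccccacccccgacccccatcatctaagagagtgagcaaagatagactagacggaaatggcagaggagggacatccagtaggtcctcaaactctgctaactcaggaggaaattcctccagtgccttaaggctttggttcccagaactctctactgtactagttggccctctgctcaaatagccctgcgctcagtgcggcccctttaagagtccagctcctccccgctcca
Stx1a: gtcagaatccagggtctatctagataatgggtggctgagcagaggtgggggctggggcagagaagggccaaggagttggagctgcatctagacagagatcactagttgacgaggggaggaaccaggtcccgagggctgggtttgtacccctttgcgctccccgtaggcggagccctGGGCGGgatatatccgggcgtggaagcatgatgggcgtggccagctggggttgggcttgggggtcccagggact
The Rab3a window shown held 2 GC boxes, the Stx1a window 1 and the Sytl4 window 0, where 32.7% of the 32851 promoter windows of the same length held at least 1. A cAMP response element core (TGACG on either strand) was found once in that Rab3a window and once in the Stx1a window, against 17.8% of all windows. The Stx1a window also held 1 E-box of the letters CAGCTG, found in 13.0% of windows. Rab3a has another annotated start, and its window (chr8:70754852-70755101, plus strand) held 0 GC boxes, 0 cAMP response element cores and 1 E-box. Among the other windows not shown, that of Unc13a held 2 GC boxes, that of Rph3al 1, and those of Rab27a 1 and 0. The Unc13a window also held 2 cAMP response element cores and the Rph3al window 3 E-boxes. The Rab27a window without a GC box held 1 of each of these motifs. The letters TTCAGCACC, the left part of the RE1 element bound by the neuronal gene repressor REST, were in 0 of the 8 windows of these genes and in 0.301% of all windows. These motifs do not overlap each other in the windows shown. Of the 10 genes, 6 had a promoter in the table; Snap25, Syt7, Syt13 and Rims2 had none. Letters of a motif are a description of the sequence, and no binding was measured here.

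Snap25 encodes a plasma membrane SNARE whose helices form part of the fusion bundle. It stood at 9.58, 9.63 and 9.55 in the Flattop-positive pools, against 9.41 and 9.09 in the Flattop-negative pools. The positive arrays were tightly grouped and both negative arrays lay just below them. The difference of 0.34 ± 0.20 (SE), with a 95% interval of -0.15 to 0.83, was near the median of genes in the same signal range (limma adjusted p = 0.474). Quantile normalisation renewed over the genes kept (-0.10) and cyclic loess, which levels each pair of arrays along the signal (-0.15), turned its sign.

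Stx1a, the syntaxin that pairs with Snap25, was at 5.64, 5.69 and 5.47 on the positive arrays. On the negative arrays it was at 4.67, below the floor of that array, and at 6.39, the highest of all 5. The positive arrays thus lay between the negative ones, and the difference of 0.07 ± 0.51 (SE) had a 95% interval of -1.20 to 1.33 (limma adjusted p = 0.960). Its sign followed the negative array kept, at -0.79 when Flattop-negative replicate 1 was left out and 0.93 when replicate 2 was. The difference was -0.059 under renewed quantile normalisation.

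Syt7 encodes a calcium sensor with high affinity that acts in insulin and glucagon release. It was at 8.47, 8.61 and 7.85 in the positive pools, against 7.70 and 8.44 in the negative pools. The groups overlapped, since Flattop-positive replicate 3 lay below Flattop-negative replicate 2. The difference was 0.24 ± 0.35 (SE; 95% interval -0.62 to 1.11; limma adjusted p = 0.751). It was -0.13 without Flattop-negative replicate 1, -0.040 under renewed quantile normalisation and -0.24 after cyclic loess.

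Syt13, a synaptotagmin without the residues that bind calcium, was at 9.78, 9.38 and 9.32 in the positive pools, against 8.15 and 8.75 in the negative pools. The groups did not overlap and the nearest values were 0.57 apart. The difference of 1.04 ± 0.28 (SE) was a 2.06-fold higher signal (limma adjusted p = 0.257). It was 0.74 when Flattop-negative replicate 1 was left out and 1.34 when replicate 2 was. Renewed quantile normalisation gave 0.69 and cyclic loess 0.55, and the unadjusted threshold was missed under both.

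**Figure D2:**
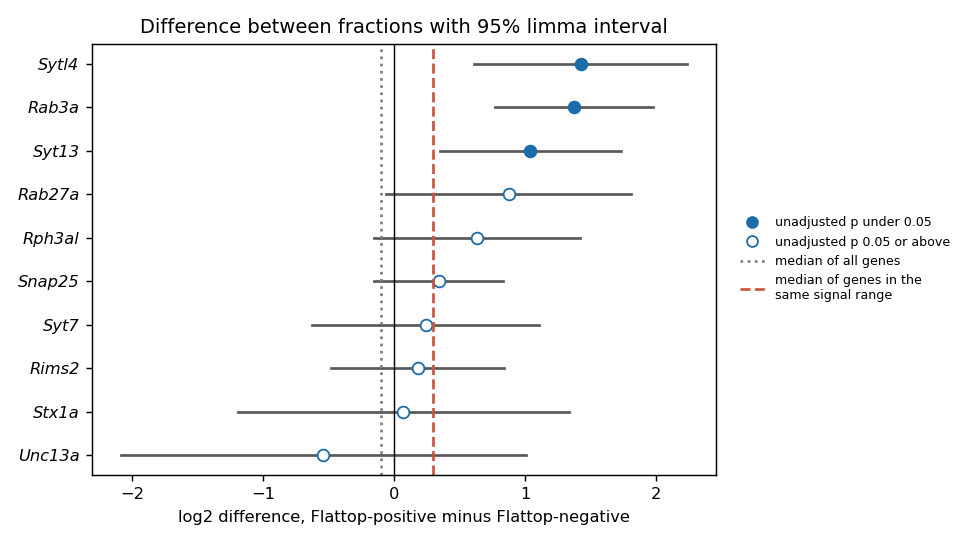
Log2 difference of each gene (Flattop-positive minus Flattop-negative) with its 95% limma interval; filled points have an unadjusted p under 0.05, and dashed and dotted lines mark the medians of genes in the same signal range (0.30) and of all genes (-0.10). The intervals of Sytl4, Rab3a and Syt13 lie above 0 and those of the other 7 include it.

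Unc13a encodes Munc13-1, which opens syntaxin so that SNAREs can assemble. Its chosen probe set (10579548), which the platform ties to a single cDNA accession, read 7.57, 7.48 and 7.49 in the positive pools, against 9.14 and 6.97 in the negative pools. The negative arrays lay on either side of the positive ones, 2.17 apart. The difference was -0.54 ± 0.62 (SE), with a 95% interval of -2.09 to 1.01 (limma adjusted p = 0.692). Without Flattop-negative replicate 1 it was 0.55, and without replicate 2 it was -1.63 and passed the adjusted threshold (limma adjusted p = 0.0412), 1 of the 434 genes of that fit with its single negative array.

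The other probe sets of Unc13a, which match its RefSeq transcript, went the other way. Probe set 10579550 read 8.09, 7.87 and 7.37 in the positive pools, against 6.57 and 7.60 in the negative pools, a difference of 0.69. Probe set 10579554 read 7.72, 7.81 and 7.39 in the positive pools, against 6.52 and 8.00 in the negative pools, a difference of 0.38. On both, Flattop-negative replicate 1 was the lowest of the 5 arrays, where probe set 10579548 had its highest value. The mean of the 3 probe sets gave a difference of 0.18, so no direction is given for Unc13a.

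**Figure D3:**
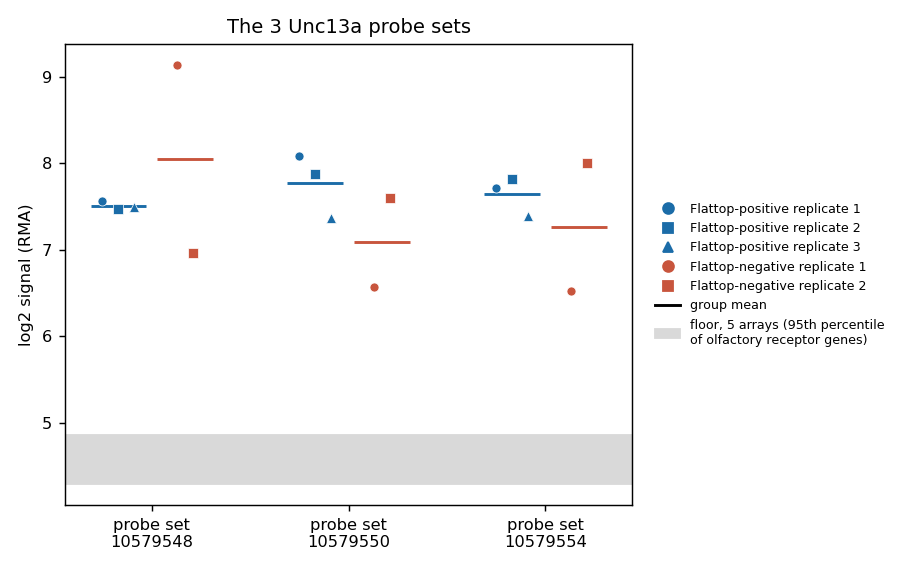
Log2 signal of the 3 probe sets of Unc13a on each array, with a point for each array and a bar for the group mean. On Flattop-negative replicate 1 probe set 10579548 was at 9.14, while 10579550 and 10579554 were at 6.57 and 6.52.

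Rims2 encodes RIM2, a scaffold that binds Rab3 and Munc13 at release sites. It was at 6.95, 7.33 and 6.66 in the positive pools, against 6.94 and 6.67 in the negative pools. Both negative values fell inside the positive range. The difference was 0.18 ± 0.27 (SE; 95% interval -0.48 to 0.84; limma adjusted p = 0.756), and it was -0.14 under renewed quantile normalisation and -0.19 after cyclic loess.

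The spread within the Flattop-negative fraction was large for several of these genes. The 2 negative arrays were farther apart than the 3 positive arrays for 7 of the 10, and for 6 their distance exceeded the difference between the fractions. Flattop-negative replicate 1 was the lowest of the 5 arrays for 6 genes and replicate 2 for 3. Rab3a and Sytl4 were higher in the positive arrays at an unadjusted p under 0.05 in the main model and in each of the 13 alternatives run on single genes, and Syt13 in all but cyclic loess and renewed quantile normalisation.

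**Figure D4:**
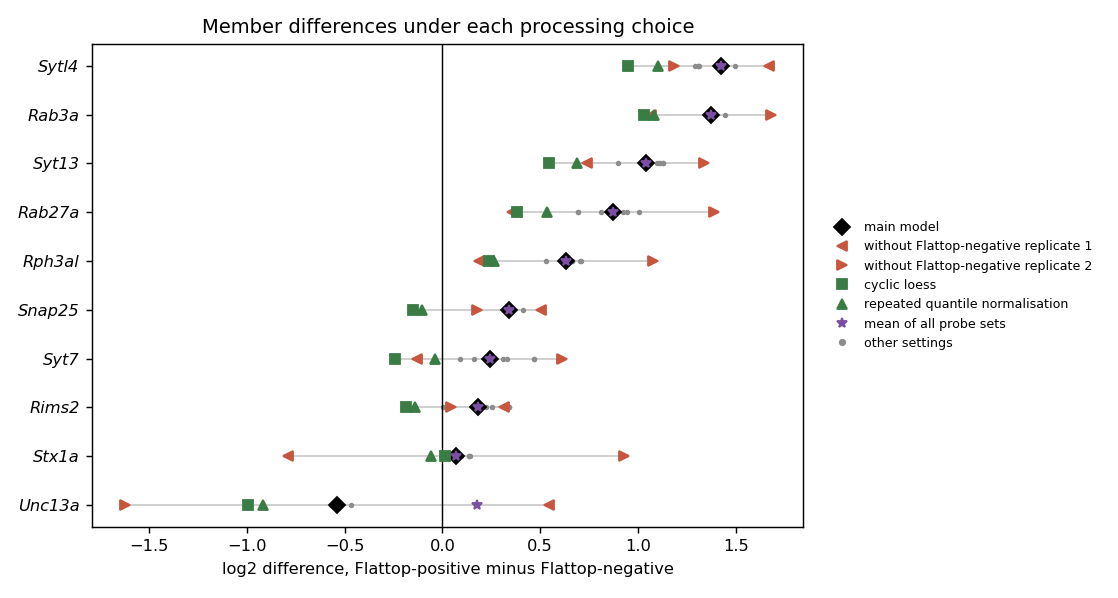
Log2 difference of each gene under the main model (black diamonds), without each Flattop-negative array (red triangles), after other normalisations (green), with all probe sets averaged (stars) and under the other settings (grey dots). Rab3a, Sytl4, Syt13, Rab27a and Rph3al stay above 0 throughout, and the other 5 cross it.

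The lists of exocytosis genes by role held 95 further genes that were measured, 8 of them below the floor on all arrays. Without overlap 15 were higher and 15 lower in the positive pools, where 13.7% of all genes were higher without overlap. The share of all genes lower without overlap is not given here, so the count of lower genes cannot be set against it. The shares over all genes depend on signal, and none was taken over genes matched in signal to the 95. At an unadjusted limma p under 0.05, the positive pools were higher for 12 and lower for 3 and 80 did not pass, where 8.48% of all genes were higher and 5.37% lower. None of the 95 passed after adjustment over all genes. Their median difference was 0.03, against -0.10 over all genes. The counts that follow take both directions together. The count was 33 when Flattop-negative replicate 1 was left out and 28 when replicate 2 was, with 12 and 13 of the original 15 among them. The share of all genes past that threshold rose too, from 13.8% to 26.8% and 27.0%.

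Among 21 other Rab GTPases and effectors, 4 were higher and 1 lower at the unadjusted threshold. Rab3d, a close relative of Rab3a found on granules of many secretory cells, was at 8.45, 8.26 and 7.84 in the positive pools, against 6.41 and 6.42 in the negative pools. The groups were 1.43 apart at their nearest values, and the difference was 1.77 ± 0.24 (SE), a 3.41-fold higher signal (limma adjusted p = 0.198). It was 1.76 and 1.78 without Flattop-negative replicates 1 and 2. Rab37, another granule GTPase, had a difference of 1.27 ± 0.35 (SE), and Madd, an exchange factor that activates Rab3 proteins, of 1.05 ± 0.18 (SE; limma adjusted p = 0.262 and 0.199). Rab37 was 0.92 without Flattop-negative replicate 1 and 0.85 after cyclic loess, and missed the unadjusted threshold in both.

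Not every relative followed. Rab3b was at 8.57, 8.52 and 8.25 in the positive pools, against 6.98 and 8.28 in the negative pools, which overlapped (0.82 ± 0.41, SE). Rab3c and Rab27b lay below the floor on all 5 arrays, so no fold is given for them. Rab8a, a GTPase of membrane delivery named after its value was seen, had a difference of 1.05 ± 0.24 (SE). Sytl2, a relative of Sytl4 also named after its value was seen, was the lower one, at 5.05 and 5.72 in the negative pools and below the floor on all 3 positive arrays. Rph3a, the rabphilin related to Rph3al, was at 4.44 to 4.69 in the positive pools, against 4.96 and 4.97 in the negative pools, close to the floor.

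**Figure D5:**
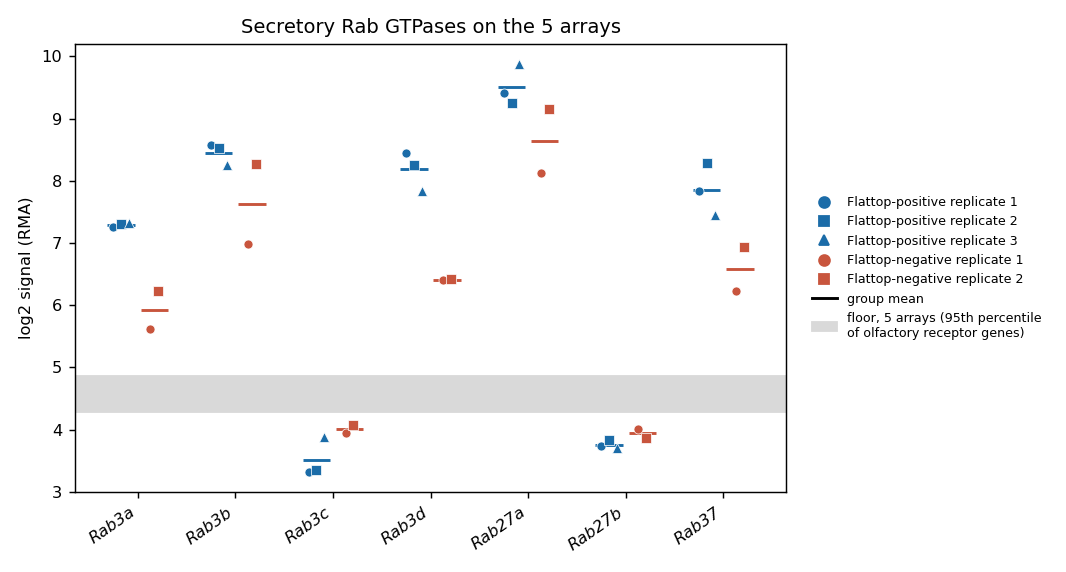
Log2 signal of 7 secretory Rab GTPases on each array, with a point for each array, a bar for the group mean and the floor as a grey band. Rab3a, Rab3d and Rab37 separate the fractions, and Rab27a does so by 0.10 at its nearest values. Rab3b overlaps, and Rab3c and Rab27b lie below the floor.

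Of 11 other SNARE genes measured, 3 were higher and 0 lower at the unadjusted threshold. Vamp8, a vesicle SNARE of granules and endosomes named after its value was seen, was at 9.53, 9.27 and 9.70 in the positive pools, against 6.61 and 8.16 in the negative pools. Both negative arrays lay below all positive ones, 1.55 apart from each other. The difference of 2.11 ± 0.47 (SE; limma adjusted p = 0.224) was 1.34 when Flattop-negative replicate 1 was left out and 2.89 when replicate 2 was, where it too was among the 434 genes past the adjusted threshold (limma adjusted p = 0.0412). Vamp3 (0.93 ± 0.21, SE) and Snap47 (1.33 ± 0.27, SE) were the others, with limma adjusted p of 0.221 and 0.214. After cyclic loess Vamp3 was 0.44 and missed the unadjusted threshold. Stx3, a syntaxin of granule fusion, had a difference of -0.12 ± 0.27 (SE). Vamp2 was not analysed here.

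Of 15 SNARE regulators, 1 was higher at the unadjusted threshold. It was Nsf, the ATPase that takes spent SNARE bundles apart, at 7.16, 7.30 and 7.56 in the positive pools, against 6.76 and 6.36 in the negative pools (0.78 ± 0.23, SE; limma adjusted p = 0.284). It missed the unadjusted threshold under 7 of the other settings, among them those without Flattop-negative replicate 2 (0.58), under renewed quantile normalisation (0.47) and after cyclic loess (0.40). Stxbp2, the syntaxin partner Munc18-2, had a difference of 0.53 ± 0.23 (SE), Cplx2, a complexin that clamps SNAREs, of 0.62 ± 0.37 (SE), and Napa, the adaptor of Nsf, of 0.35 ± 0.24 (SE). None of the 3 passed the unadjusted threshold.

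Of 21 other synaptotagmin, Doc2 and extended synaptotagmin genes, 0 were higher and 2 lower. They were Syt1, the calcium sensor of synaptic vesicles (-0.84 ± 0.22, SE), and Syt15 (-0.71 ± 0.19, SE), with limma adjusted p of 0.253 and 0.254. Both were dim. Syt1 lay below the floor on 1 positive array and Syt15 on all 3, so their sizes are uncertain. Both missed the unadjusted threshold with the replicate block, and Syt15 also after cyclic loess (-0.44). Syt4 was at 10.06, 9.55 and 9.40 in the positive pools, against 9.83 and 9.44 in the negative pools. The groups overlapped fully, with a difference of 0.04 ± 0.28 (SE). Syt5 (0.37 ± 0.34, SE) and Syt9 (-0.15 ± 0.24, SE), both tied to insulin granules, overlapped too.

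Of 18 other priming and active zone genes, 3 were higher and 0 lower. Rims3, a short relative of Rims2, was at 7.44, 7.17 and 6.77 in the positive pools, against 5.59 and 6.29 in the negative pools. The groups did not overlap, unlike those of Rims2 itself, though the 2 genes were not tested against each other. Its difference was 1.19 ± 0.32 (SE; limma adjusted p = 0.259), and without Flattop-negative replicate 1 it was 0.84 and missed the unadjusted threshold. Cadps, which primes dense-core granules, had a difference of 0.59 ± 0.21 (SE; limma adjusted p = 0.323). That of Cadps was 0.42 without Flattop-negative replicate 2, 0.28 under renewed quantile normalisation and 0.12 after cyclic loess. Cadps missed the unadjusted threshold under both of these normalisations, without Flattop-negative replicate 2 and with any 1 positive array left out. It missed that threshold too with the replicate block, with dim genes left out, with an intensity trend and with array weights. Bsn, a large scaffold named after its value was seen, had 0.78 ± 0.29 (SE). It was 0.47 without Flattop-negative replicate 1, and missed the unadjusted threshold there, without Flattop-positive replicate 1 or 2, with the replicate block, with array weights and with dim genes left out. Unc13b, another Munc13, had 0.27 ± 0.21 (SE), and Rims1 and Cadps2 lay below the floor on 4 of the 5 arrays.

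Markers of cell types were read on the same arrays. Of 9 β-cell markers measured, 6 were higher and 0 lower at the unadjusted threshold, where 8.48% of all genes were higher and 5.37% lower. The 6 were Pdx1, Nkx6-1, Slc2a2, Ucn3, Slc30a8 and G6pc2. Ins2 (0.18 ± 0.28, SE) and Iapp (0.10 ± 0.19, SE), which had the highest mean signals of the 9, overlapped between the fractions. The summed signal of the 9 was 14.46 to 14.74 in the positive pools, against 14.13 and 14.26 in the negative pools, in log2 units. None of the 9 was below the floor on all arrays. Markers of δ, PP and ε cells (6 measured) summed to 11.97 on Flattop-negative replicate 1 and to 13.93 to 14.99 on the other arrays. The 10 immune markers summed to 10.03 on Flattop-negative replicate 2 and to 7.95 to 8.53 elsewhere, and the 8 stellate and mesenchymal markers to 9.30 against 7.44 to 7.77. Lyz2, a macrophage lysozyme, was at 9.41 on Flattop-negative replicate 2 and at 3.36 to 4.58 elsewhere, and Vim, a mesenchymal filament gene, at 8.59 and at 4.64 to 5.64. At the unadjusted threshold the immune list had 1 higher gene (C1qa, 1.32) and 1 lower (C1qc, -0.91). Of these lists, 4 immune and 2 stellate markers were below the floor on all arrays. The 5 α-cell markers summed to 13.63 to 13.88 in the positive pools, against 13.24 and 14.11 in the negative pools. The 8 acinar markers summed to 7.23 to 7.54 and to 7.76 and 8.67, the 8 endothelial markers to 6.78 to 6.83 and to 6.92 and 7.42, the 6 glial markers to 6.84 to 7.11 and to 7.19 and 7.33, and the 6 duct markers to 9.73 to 10.30 and to 8.47 and 9.83, in the same order. On all arrays 2 acinar, 6 endothelial, 3 glial and 1 duct marker lay below the floor. Neuron markers, which bear on genes shared with synapses, summed to 8.76 to 9.34 and to 8.00 and 8.47, with 3 of 8 below the floor on all arrays, Chat and Slc17a6 among them, and Rbfox3 at 5.27 or less. At the unadjusted threshold 2 neuron markers were higher and 1 lower, and the median difference over the 8 was -0.05. The lower one was Elavl3 (-0.53 ± 0.21, SE). The higher ones were Th, at 7.20, 7.30 and 7.87 in the positive pools, against 4.42 and 6.56 in the negative pools, and Tubb3, at 7.53, 6.62 and 7.61, against 5.54 and 6.13. The duct list had 1 higher gene at that threshold, Krt7 (1.85 ± 0.53, SE), which had the highest mean signal of the duct markers. The acinar, stellate and glial lists had 1 lower gene each, Cela3b (-1.02), Dcn (-0.72) and Cdh19. Dcn lay below the floor on 4 arrays and Cdh19 on all 5. The part of these cell types in the differences of the exocytosis genes was not tested.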

How the data were processed

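The authors deposited log2 signals per probe set, and the submitters' processing notes name RMA and Affymetrix Expression Console, version 1.3.0.187. RMA subtracts background, equalises distributions between arrays and combines the probes of a set, so each value depends on all arrays. No source used here gives the genome build. Of 35556 probe sets, 21789 carried 1 gene symbol, 1621 several and 12146 had no listed gene; 19938 genes were kept. Depth does not apply to arrays, and their number limits the precision.

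Fractions were compared in limma 3.58.1 (R 4.3.3) over all genes, with group as the only term, moderated variances, two-sided tests and Benjamini-Hochberg adjustment; the model was tested on simulated data. Intervals are limma's 95% intervals. With 3 arrays against 2, an exact one-sided permutation test cannot give a p below 0.1. The members, gene lists and naming rule (the members, fixed partners and the 2 other genes of smallest p per role list) were chosen with earlier results of these data known. Alternatives were the replicate block, each array left out, other normalisations (renewed quantile, median centring, cyclic loess), no dim genes, all probe sets averaged, an intensity trend, array weights and a p of 0.01. Other software was pandas 2.3.3 and matplotlib 3.10.9.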

Additional observations from a re-analysis of the deposited data

How the results depend on the processing

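The count of the 10 genes at an unadjusted p under 0.05 (3) was 5 with arrays centred on their medians, 2 at a p of 0.01 and 2 after cyclic loess or renewed quantile normalisation; with 1 array left out it ran from 3 to 7, reached without Flattop-negative replicate 2, where 27.0% of all genes passed that p, against 13.8% with all arrays. Without either Flattop-negative array, the genes called lay in both directions. The median difference over the 10 genes (0.49) was 0.11 under renewed quantile normalisation and 0.12 after cyclic loess. With 1 array left out it was 0.42 to 1.003. The count of other exocytosis genes (15) ran from 12 to 33 with 1 array left out. Whether the replicate numbers pair the samples is not known, and only 2 numbers are shared. Deviations of same-numbered arrays from their group means correlated at 0.18 (replicate 1) and -0.14 (replicate 2). The deviations of the 2 negative arrays mirror each other, so any positive array correlates with them at equal size and opposite sign. For Flattop-positive replicate 1 these were 0.18 and -0.18. The 2 same-numbered correlations differ in sign and rest on so few arrays that they cannot decide on pairing. The fit with the replicate block leaves Flattop-positive replicate 3 without weight; it called Rab3a, Syt13 and Sytl4 again (3 of 10; median 0.57) and 10 other exocytosis genes, 9 of them among the 15.

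Differences changed sign as follows. On renewed quantile normalisation they were -0.10 for Snap25, -0.059 for Stx1a, -0.040 for Syt7, -0.14 for Rims2, 0.091 for Rab27b, -0.19 for Vamp4, -0.40 for Syt4, -0.0060 for Syt5, -0.019 for Unc13b, 0.22 for Cadps2 and 0.040 for Rims1. After cyclic loess they were -0.15 for Snap25, -0.24 for Syt7, -0.19 for Rims2, 0.093 for Rab27b, -0.30 for Vamp4, -0.14 for Napa, -0.45 for Syt4, 0.24 for Cadps2, 0.054 for Rims1 and -0.071 for Exoc7. The mean of all probe sets gave 0.18 for Unc13a, the replicate block 0.094 for Stx3 and 0.097 for Cadps2, centring 0.037 and array weights 0.025 for Cadps2. With 1 array left out, signs turned within the ranges -0.79 to 0.93 (Stx1a), -0.13 to 0.61 (Syt7), -1.63 to 0.55 (Unc13a), -0.18 to 1.92 (Snap23), -0.25 to 0.094 (Stx3), -0.16 to 0.23 (Syt4), -0.15 to 0.89 (Syt5), -0.34 to 0.035 (Syt9), -0.11 to 0.097 (Cadps2), -0.21 to 0.75 (Exoc7), -1.29 to 0.71 (Snap29) and -0.56 to 0.94 (Vamp4). The cause of these shifts was not tested.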

Other observations

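The exocyst, the complex that tethers vesicles at the membrane, was measured through 9 genes. Exoc3 was at 6.69, 6.67 and 6.67 in the Flattop-positive pools, against 6.20 and 6.06 in the Flattop-negative pools. It was the only exocyst gene at an unadjusted p under 0.05 and without overlap (0.55 ± 0.18, SE; limma adjusted p = 0.305). Its difference was 0.25 under renewed quantile normalisation and 0.25 after cyclic loess, past the threshold under neither. Exoc3 also missed the threshold with any 1 positive array left out, with the replicate block, with dim genes left out, with an intensity trend and with array weights. Exoc7, which binds membrane lipids, was at 7.03 and 6.06 in the negative pools, on either side of the positive ones (0.27 ± 0.34, SE). The median difference over the exocyst genes was 0.11.

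Several SNARE genes parted the 2 Flattop-negative arrays, in both directions. Snap23, which replaces Snap25 in many cells, was at 8.65 on Flattop-negative replicate 1 and 6.56 on replicate 2, against 8.29 to 8.59 on the positive arrays. Snap29 read 7.35 and 5.35 against 5.89 to 6.21, and Vamp4 9.01 and 7.51 against 8.33 to 8.54. Stx4a, a plasma membrane syntaxin, ran the other way, at 5.78 and 7.78 against 7.51 to 8.09. None of these 4 had an unadjusted p under 0.05 between the fractions. Snap29 and Vamp4 were named after their values were seen.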
